A study of Rattus norvegicus with 4 samples.

Results

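The rat S100 calcium-binding proteins described here are S100a1, S100a4 and S100b, read in vestibular ganglion neurons. The members were taken by name: every probe whose single gene symbol in the platform annotation is S100a1 (gene ID 295214), S100a4 (gene ID 24615) or S100b (gene ID 25742). That gave 3 of the 12111 genes named by a single-symbol probe, each with 1 probe (15077, 51068 and 111017) of the 35126 on the array, and all 3 passed the limit for dim probes that left 21070. Neurons of rat vestibular ganglia stained for calretinin were taken by laser capture, and their pooled total RNA was hybridised to 1-colour (Cy5) arrays. The design text equates calretinin-positive cells with the afferents that end in a calyx and calretinin-negative cells with dimorphic and bouton afferents. Each group had 2 arrays, grouped by title. The description field calls all 4 samples positive, against the titles, so the groups are called the arrays labelled positive and labelled negative. No source used here gives the strain, the age or the number of animals in a pool, or says that the arrays of a group came from separate pools.

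S100 proteins are small EF-hand proteins, found only in vertebrates, that mostly work as dimers: calcium opens a hydrophobic face with which they bind other proteins. Unlike buffers such as calretinin they act largely as calcium sensors. S100b is widely used as a marker of Schwann cells, satellite glia and astrocytes and is also present in some neurons. S100a1 is known from heart and skeletal muscle and from neurons, and S100a4 from fibroblasts, leukocytes and glia of white matter. Most S100 genes lie in a cluster, which in the rat is on chromosome 2 and holds S100a1 and S100a4, while S100b lies apart on chromosome 20 (assembly GRCr8).

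The upstream sequences of the members for which RefSeq's promoter table had an entry are shown because these genes lie on different chromosomes and had lower intensity in the same arrays. S100a1 was not in the table. The S100a4 window covers chr2:178388279-178388528 on the plus strand, and the S100b window chr20:12381160-12381331 on the minus strand (GRCr8). Both end at the base before the outermost annotated start of the gene, and capitals mark every match to a searched motif.
S100a4: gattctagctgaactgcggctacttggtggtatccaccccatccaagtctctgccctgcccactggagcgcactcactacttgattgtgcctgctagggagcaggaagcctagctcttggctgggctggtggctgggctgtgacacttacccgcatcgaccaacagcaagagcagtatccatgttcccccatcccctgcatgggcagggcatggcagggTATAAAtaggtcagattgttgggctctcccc
S100b: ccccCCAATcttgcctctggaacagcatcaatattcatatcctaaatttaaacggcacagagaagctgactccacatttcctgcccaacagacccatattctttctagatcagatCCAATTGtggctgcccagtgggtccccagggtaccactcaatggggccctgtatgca
Both strands were searched for TATAAA as the TATA box and for CCAAT as the box of that name. GGGCGG stood for the GC box and CANNTG for the E-box, to which helix-loop-helix factors bind. TGANTCA was searched as the site of AP-1 factors and ACAAAG as the core of a SOX factor site. S100a4 had 1 match, a TATA box that begins 31 bases before the annotated start. S100b had 2 CCAAT matches and 1 E-box, and the second CCAAT match overlaps the E-box. Of 33469 promoters in the table, 12.9% held TATAAA in a window as long as that of S100a4, and 24.7% held CCAAT and 52.8% CANNTG in one as long as that of S100b. The windows for such shares, here and below, were the first bases of each promoter's entry. They matched in length but not in place relative to an annotated start. No motif was matched in both the S100a4 and the S100b window. For the motifs without a match in either, windows of the longer and the shorter length held GGGCGG in 30.5% and 19.7% of promoters, TGANTCA in 6.3% and 4.4%, and ACAAAG in 16.3% and 11.6%.

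All 3 members had lower intensity in the arrays labelled positive, and for none did the arrays of the groups overlap. Over all 21070 tested probes, 31.9% were lower in the arrays labelled positive without overlap and 49.8% higher, and 23.6% were called lower at an adjusted p of 0.05 (limma, Benjamini-Hochberg). The genes were chosen with their values in this comparison known, so their differences are given as a description and with no test. Intensities are on the authors' linear scale, on which the array medians lay between 0.9896 and 0.992, and levels of different probes are not compared.

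S100a4, which binds non-muscle myosin and annexin proteins and is secreted by some cells, showed the widest gap of the 3. Its intensity was 3.34 and 3.21 in the arrays labelled positive and 20.1 and 20.4 in those labelled negative. The means were 3.28 ± 0.0972 (SD, n = 2) and 20.2 ± 0.225, a 6.17-fold lower level in the arrays labelled positive and a log2 difference of -2.63. The arrays of a group lay close together, 0.06 apart on the log2 scale in the positive pair and 0.02 in the negative pair. Of all tested probes 1.21% had a more negative difference. Of the 2695 probes within 0.5 log2 units of its mean level 0.594% did.

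S100b, the glial member, had an intensity of 3.33 and 3.85 in the arrays labelled positive and 8.84 and 8.55 in those labelled negative. The means were 3.59 ± 0.370 (SD, n = 2) and 8.69 ± 0.204, 2.43-fold lower in the arrays labelled positive, with a log2 difference of -1.28. Its positive arrays lay further apart than those of the other members, by 0.21 on the log2 scale, where the median gap among 2949 probes of like level was 0.08. That gap is small beside the difference between the groups. Without the first positive array the log2 difference was -1.17, and without the second -1.38. Of all tested probes 5.02% had a more negative difference, and of the probes of like level 3.8%.

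S100a1, which in muscle cells binds the ryanodine receptor and the calcium pump of the sarcoplasmic reticulum, had an intensity of 32.3 and 32.0 in the arrays labelled positive and 59.7 and 63.9 in those labelled negative. The means were 32.2 ± 0.206 (SD, n = 2) and 61.8 ± 3.01, 1.92-fold lower in the arrays labelled positive, with a log2 difference of -0.94. Here the negative pair was the wider, 0.10 apart on the log2 scale against 0.01 for the positive pair. Of all tested probes 7.77% had a more negative difference, and of the 1371 probes of like level 2.26%.

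**Figure D1:**
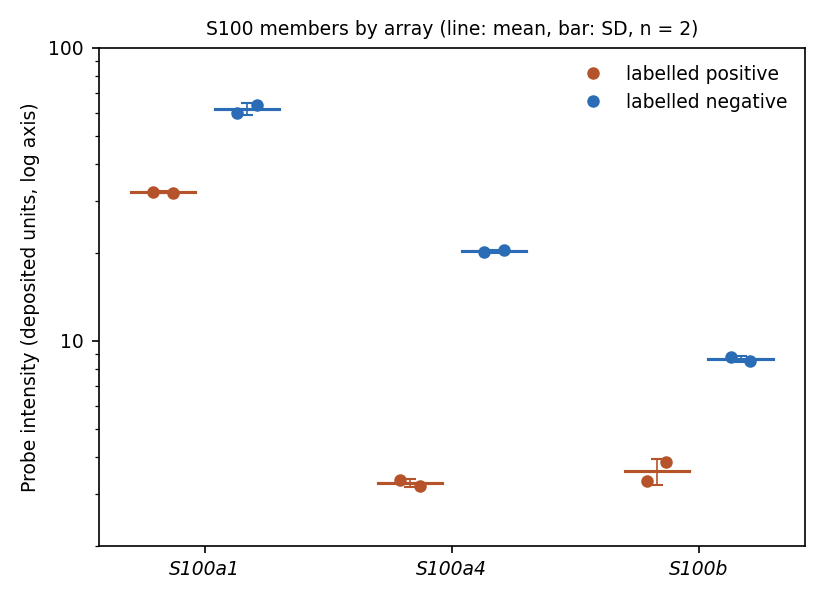
Intensity of the S100a1, S100a4 and S100b probes on each array, in the authors' units on a log axis. Points are arrays, lines are group means and bars are SDs (n = 2); in each gene both arrays labelled positive lie below both labelled negative, by 6.17-fold for S100a4 and 1.92-fold for S100a1.

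The median log2 difference of all tested probes was 0.11, higher in the arrays labelled positive; quantile normalization moved it to 0.01 and cyclic loess to -0.01. Relative to the median as deposited the difference was -2.74 for S100a4, -1.39 for S100b and -1.05 for S100a1. The probes that share an array row with a member did not share its direction: their median log2 difference was 0.11 for 62 probes beside S100a1, 0.19 for 69 beside S100a4 and 0.36 for 81 beside S100b.

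**Figure D2:**
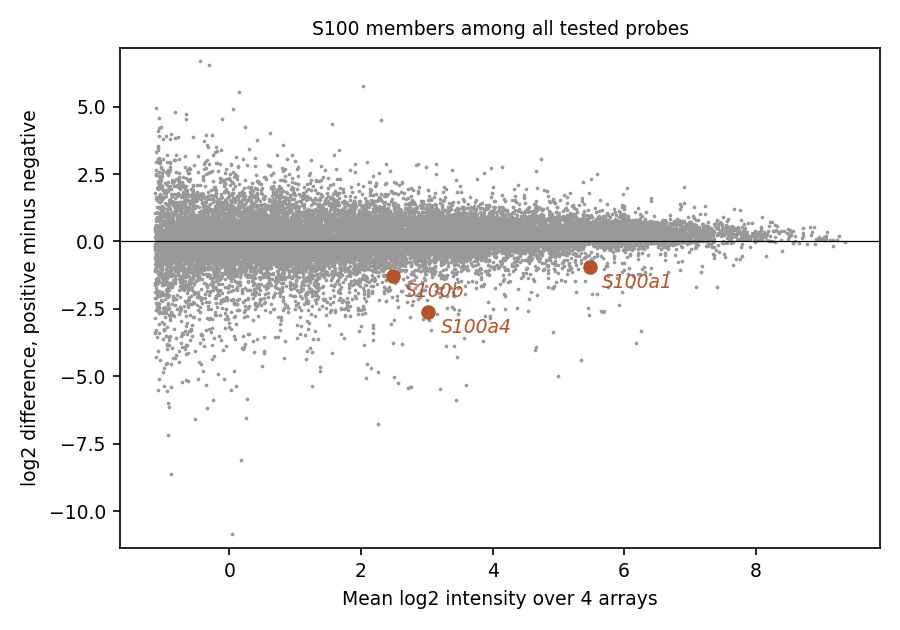
Log2 difference, positive minus negative, against the mean log2 intensity over the 4 arrays for the 21070 tested probes in grey, with the 3 members marked. The members lie in the lower part of the cloud, S100a4 lowest at -2.63, where 1.21% of tested probes lie lower, and S100a1 at -0.94, where 7.77% do.

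Other S100 genes were read to place the members in their family. Of 16 listed, 8 had a readable probe with a single symbol and 5 passed the limit for dim probes. Of these 3 fell in the arrays labelled positive, 1 rose and 1 did not pass (adjusted p of 0.05, limma, Benjamini-Hochberg), against 23.6% of all tested probes that fell and 40.6% that rose. The median log2 difference was -0.99 over these 5 genes, beside 0.11 over all tested probes, and -0.20 with the 3 dim genes included. That split depends on the scaling: 8564 tested probes rose and 4966 fell as deposited, 6956 and 6052 with quantile normalization, and 6685 and 6784 with cyclic loess, while the family counts were the same in all 3. The passing genes were filtered on their level, so the counts do not cover the family. S100a3, a cysteine-rich protein known from hair cuticle, fell: it had 6.32 and 7.33 in the arrays labelled positive and 20.8 and 21.5 in those labelled negative, a log2 difference of -1.63 ± 0.08 (SE; adjusted p = 2.39e-07). S100a16 fell from 36.3 and 37.2 to 17.1 and 18.1, a log2 difference of -1.06 ± 0.07 (SE; adjusted p = 9.66e-07).

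S100a13, which takes part in the release of fibroblast growth factor 1 and interleukin 1 alpha, fell from 19.4 and 20.1 to 10.2 and 9.72, a log2 difference of -0.99 ± 0.07 (SE; adjusted p = 1.45e-06). S100a9, a subunit of calprotectin in neutrophils and monocytes, rose: it had 5.57 and 5.30 in the arrays labelled positive and 4.201 and 3.79 in those labelled negative (log2 difference 0.45 ± 0.08, SE; adjusted p = 0.000735). That call was lost when each probe was tested on its own spread (adjusted p = 0.0723). S100a5, known from olfactory neurons, had 1.43 and 1.38 against 1.42 and 1.54 (log2 difference -0.07, adjusted p = 0.594), and its groups overlapped. The probes of S100a10, S100a11 and S100g were below the dim limit of 0.456 on every array, the highest value being 0.286 for S100a10, so they have no fold. S100a13, S100a16, S100a9 and S100a5 are read 5 table rows after their probe ID, where late probes agreed best in level with early probes of the same accession. Read at their own IDs, or with the early part alone, the calls in the family were 2 and 1 in place of 4.

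**Figure D3:**
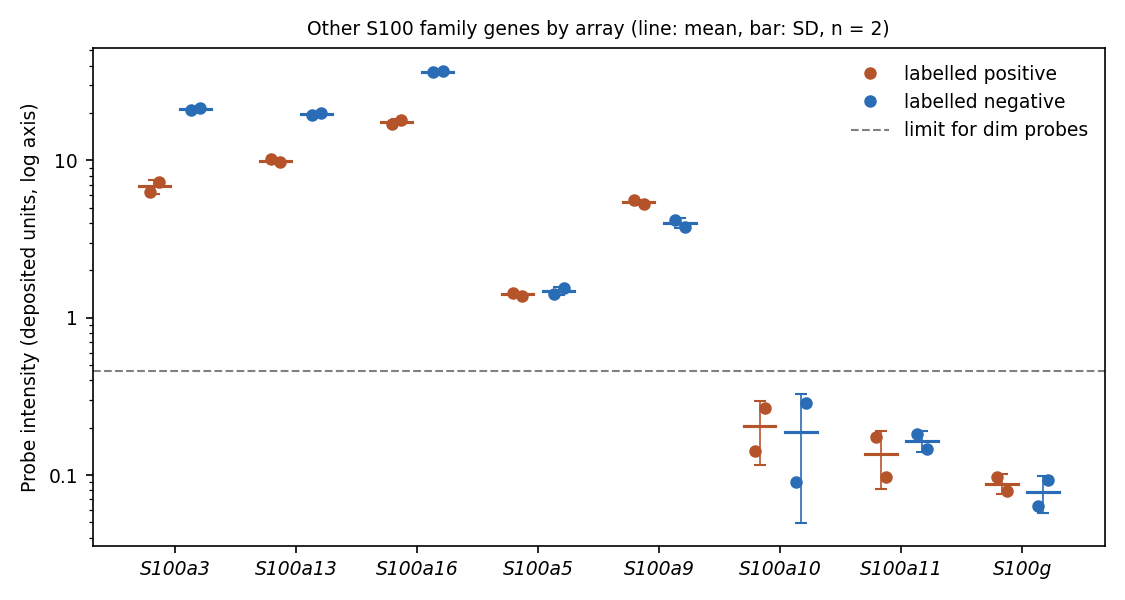
Intensity of the 8 other S100 genes with a readable probe on each array, in the authors' units on a log axis, with group means and SDs (n = 2) and the limit for dim probes at 0.456. S100a3, S100a13 and S100a16 lie lower in the arrays labelled positive, S100a9 higher, S100a5 overlaps, and S100a10, S100a11 and S100g lie below the limit.

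All 5 other S100 genes tested above lie within 5 genes of S100a1 or S100a4 in the genome, so the counts of family and neighbours overlap. Among the 5 protein-coding genes on each side of each member in the GRCr8 gene order, 24 different genes without the members, 13 were tested: 6 fell, 4 rose and 3 did not pass, with a median log2 difference of -0.07. Of all tested probes 64.2% were called, 23.6% lower and 40.6% higher. S100a13 is the next gene to S100a1, with S100a14, which had no readable probe, and S100a16 beyond it, and Chtop, the next on the other side, a chromatin and messenger RNA export factor, also fell (3.70 against 5.73, log2 difference -0.63, adjusted p = 6.68e-05). Snapin, a binding partner of the SNARE complex that lies next to Chtop, rose (19.1 against 12.5, log2 difference 0.61, adjusted p = 4.55e-05). S100a4 lies between S100a3, which fell, and S100a5, which did not pass. S100a9, further along on the side of S100a5, rose by 0.45 on the log2 scale. Prmt2, an arginine methyltransferase next to S100b, fell from 6.58 ± 0.647 to 3.12 ± 0.176 (SD, n = 2; log2 difference -1.07, adjusted p = 4.75e-06). A dimmer Prmt2 probe that did not pass the dim limit lay the other way, with 0.963 and 0.957 in the arrays labelled positive against 0.102 and 0.0389. Dip2a, on the other side of S100b, fell by 0.56 on the log2 scale. Mcm3ap and Ybey, further along on the side of Dip2a, rose by 0.49 and 0.46; another probe of Ybey was called lower (-0.48).

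Known binding partners and targets of S100 proteins were read from a list. Of 45 listed, 37 had a readable probe and 31 passed the limit for dim probes: 16 rose in the arrays labelled positive, 9 fell and 6 did not pass, against 40.6% and 23.6% of all tested probes. Their median log2 difference was 0.19, beside 0.11 over all tested probes. With quantile normalization 12 rose, 11 fell and the median was -0.05, and with cyclic loess 13 rose, 11 fell and it was -0.01, so the direction of the list as a whole was not settled. Gfap, the astrocyte filament protein to which S100b binds, fell from 44.5 ± 2.41 to 1.04 ± 0.0739 (SD, n = 2; log2 difference -5.42, adjusted p = 3.16e-10). Ager, the receptor for advanced glycation end products and a receptor of extracellular S100 proteins, fell from 2.32 ± 0.0502 to 1.54 ± 0.0368 (log2 difference -0.59, adjusted p = 0.000332). Tlr4, another receptor, was below the dim limit.

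Among intracellular partners, Myh9, a non-muscle myosin heavy chain that S100a4 binds, fell (1.53 ± 0.170 against 2.23 ± 0.0533, SD, n = 2; log2 difference -0.55, adjusted p = 0.00134). That call was lost on the probe's own spread (adjusted p = 0.0863). The other listed non-muscle myosin heavy chains did not fall. Myh10 was called higher (153 against 103, log2 difference 0.56, adjusted p = 6.71e-05), and Myh14 was not called (adjusted p = 0.309). Anxa11, an annexin bound by S100a6, had 0.317 and 0.358 in the arrays labelled positive, below the dim limit, and 2.06 and 2.46 in those labelled negative (adjusted p = 7.28e-07), so no fold is given. A dimmer Anxa11 probe that did not pass the dim limit lay the other way, with 0.352 and 0.464 against 0.201 and 0.0674. Pln, the inhibitor of the calcium pump, fell by 1.03 on the log2 scale at its brightest probe, and a second called probe had 0.205 and 0.127, below the dim limit, against 5.24 and 4.59. Aldoc, a brain aldolase, fell by 0.60, with no call on its own spread (adjusted p = 0.0705). Anxa1 and Anxa2, the annexins known to bind S100a11 and S100a10, rose. Anxa1 had 24.8 and 23.0 against 9.33 and 9.31 (log2 difference 1.36, adjusted p = 2.50e-07), and Anxa2 2.83 and 3.47 against 1.51 and 1.21 (log2 difference 1.21, adjusted p = 3.20e-05; 0.0692 on its own spread). Capza1, a subunit of the actin capping protein, rose by 0.94 on the log2 scale and Syn1, a synaptic vesicle protein, by 0.80, the latter with an adjusted p of 0.0798 on its own spread. Pgm1, an enzyme of glycogen metabolism, was called higher (adjusted p = 0.0288), but its mean of 0.342 in the arrays labelled negative was below the dim limit. Without the second negative array its adjusted p was 0.152, and the call was also lost without either positive array and on the probe's own spread (adjusted p = 0.27).

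Markers of other cells moved in the same arrays, and their part in the levels of the S100 genes was not tested. The counts stand against 23.6% of all tested probes that fell and 40.6% that rose, and each sum is weighted towards its brightest probes. Of 7 tested Schwann and satellite glia markers 5 fell and none rose (6 fell with quantile and 7 with loess normalization), and the summed intensity of the 9 readable ones was 145 to 155 in the arrays labelled positive and 279 to 293 in those labelled negative, most of it from Prx (107 against 199). Lgi4 fell by 4.82 on the log2 scale and Sox10, the transcription factor of peripheral and central myelinating glia, by 2.25. Cdh19 and Erbb3 were below the dim limit in mean level. Cdh19 exceeded it in the arrays labelled negative (0.88 and 0.76, against 0.09 and 0.10). Of 7 oligodendrocyte markers 4 fell, 5 with either normalization, led by Mog (log2 difference -5.42), and 1 rose, Aspa (4.41 against 2.38). The sums were 215 to 217 against 347 to 353. Mag, Ermn, Olig1 and Olig2 were below the limit in mean level. Olig1 exceeded it in the arrays labelled negative (0.60 and 0.57, against 0.08 and 0.11). Of 6 astrocyte markers 4 fell, led by Aqp4, and 1 rose, Gjb6 (185 against 126). The sums were 429 to 468 against 561 to 583. On each probe's own spread 2 fell, without Slc1a3 (adjusted p = 0.177) and Aldoc (adjusted p = 0.0705). The call of Slc1a3 (log2 difference -0.20) was also lost with no dim filter and with no trend in the prior. Slc1a2 was below the limit in mean level, with 0.683 on the second array labelled negative. The brighter Aqp4 probe had 0.344 and 0.603, around the dim limit, against 48.4 and 51.7 and is given no fold; its other tested probe had a log2 difference of -2.28. The median log2 differences of the tested markers in these lists were -1.01, -0.66 and -0.44, beside 0.11 over all tested probes.

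For S100a4, which fibroblasts and leukocytes also express, the lists differed. Of 6 tested fibroblast markers 1 rose, Ogn (log2 difference 1.08), and 2 fell, 3 with quantile or loess normalization and 1 on each probe's own spread. The call of Col1a1 (-0.24) was lost on its own spread (adjusted p = 0.141) and without a trend in the prior. Its other tested probe was not called (0.05). The sums were 515 to 532 against 449 to 462. Most of each came from Thy1 (343 against 326, not called as deposited), and Ogn had 117 against 55.1. Fbln1 and Lum were below the limit. Blood and immune markers fell in 5 of 8 tested, led by C1qa (-2.04), and rose in 2, or 1 with either normalization. Those that rose were Ptprc (27.1 against 21.3), not called with either normalization, and Cd68 (3.96 against 2.93). The sums were 96.5 to 101 against 176 to 185. Fcgr3a and Lyz2 were below the limit in mean level. Fcgr3a exceeded it in the arrays labelled negative (0.85 and 0.73, against 0.17 and 0.28). Of 8 endothelial and mural markers 7 fell, led by Vwf (-2.26), with sums of 31.7 to 32.5 against 85.9 to 89.7, and Acta2 and Kdr below the limit. The call of Flt1 (-0.19) in that count was lost on its own spread (adjusted p = 0.0858), without a trend in the prior and without any array but the second negative one, and its other tested probe was called higher (0.97). Pdgfrb (-0.44) lost its call on its own spread too (adjusted p = 0.0717), where 5 of the 8 fell, and its other tested probe was not called (-0.20). Of 5 neuron markers 4 rose, led by Nefh (1.62), and 1 fell, Prph (54.6 against 110, log2 difference -1.01). The sums were 385 to 395 against 374 to 377, and Snap25 was below the limit. With either normalization 2 rose. In bulk samples such as these, fewer cells of a type and less RNA per cell cannot be told apart.

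**Figure D4:**
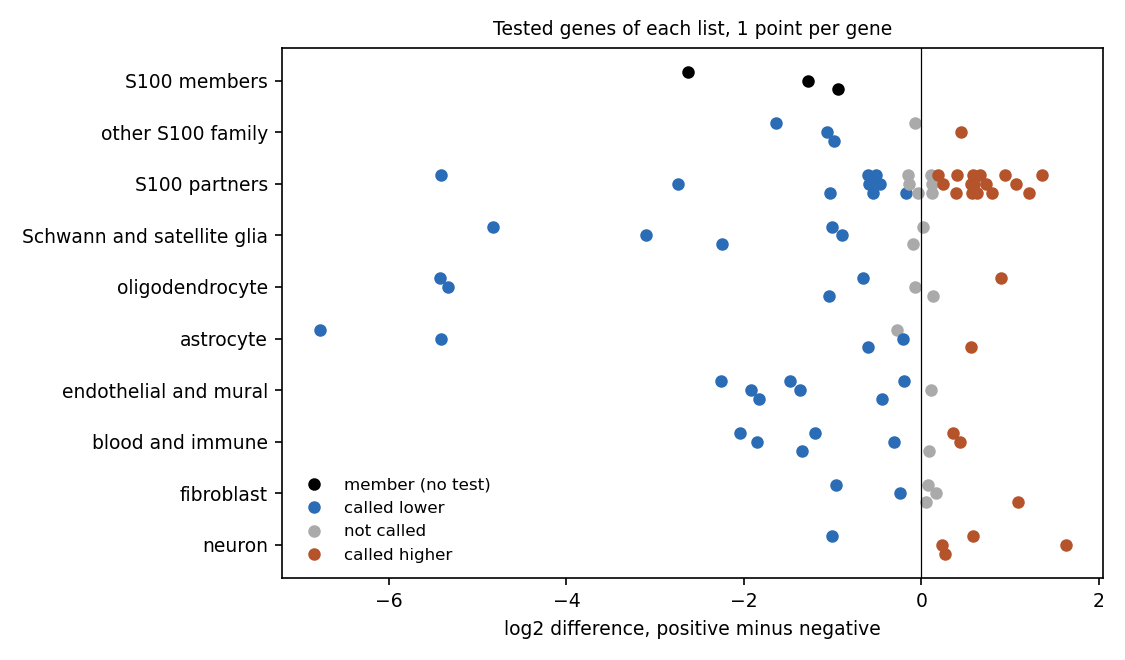
Log2 difference, positive minus negative, of each tested gene of the S100 members and of the lists, 1 point per gene, coloured by its call at an adjusted p of 0.05. The members lie between -2.63 and -0.94, the endothelial and glial lists lie mostly below 0, and the partners spread on both sides.

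The probes whose pattern over the 4 arrays was most like that of a member were found by the root mean square difference of log2 values, each centred on the probe's mean, among 9772 named tested probes. For S100a4 they were Rftn1 (0.0431), a lipid raft protein of B cells and other cells, Hba-a3 (0.0475), an alpha globin, and Enc1 (0.0484). Hba-a3 had 21.1 and 21.3 in the arrays labelled positive and 128 and 124 in those labelled negative, and Rftn1 had 1.70 and 1.61 against 9.93 and 9.58. For S100b they were Mtbp (0.0293), Itm2a (0.0303) and the receptor tyrosine kinase Tyro3 (0.0309), which had 5.73 and 6.46 against 14.9 and 13.9. For S100a1 they were Slc29a3 (0.0199), a nucleoside transporter, Adamts15 (0.0294) and Hmmr (0.0301). With 4 arrays in 2 groups this measure depends mostly, by its construction, on the size of the difference between the groups.

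The 4 arrays were alike in scale and the replicates close: across tested probes Pearson's r was 0.9896 for the pair labelled positive, 0.994 for the pair labelled negative and 0.926 to 0.928 between the groups (genes are not independent replicates). In all 64.2% of tested probes were called in either direction, and since the replicates may be technical, a p-value here speaks only of the spread from array to array; the number of arrays limits the precision. Calb2, which encodes calretinin, had 309 ± 26.0 in the arrays labelled positive and 134 ± 6.67 (SD, n = 2) in those labelled negative when read 5 table rows after its ID, in the direction of the titles, and a log2 difference of -1.08, against them, when read at its own ID. It was used to choose the cells and is no finding.

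The members kept their direction with each normalization. Leaving out an array could change the size of a difference but not its direction, since the groups did not overlap for any member. The higher floor and the reading of late IDs could not change the differences, since the members are early probes with values above 0. With quantile normalization the log2 difference was -2.74 for S100a4, -1.35 for S100b and -1.20 for S100a1, and with cyclic loess it was -2.78, -1.42 and -1.17. Leaving out each array in turn gave -2.66 to -2.60 for S100a4, -1.38 to -1.17 for S100b and -0.99 to -0.89 for S100a1.

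**Figure D5:**
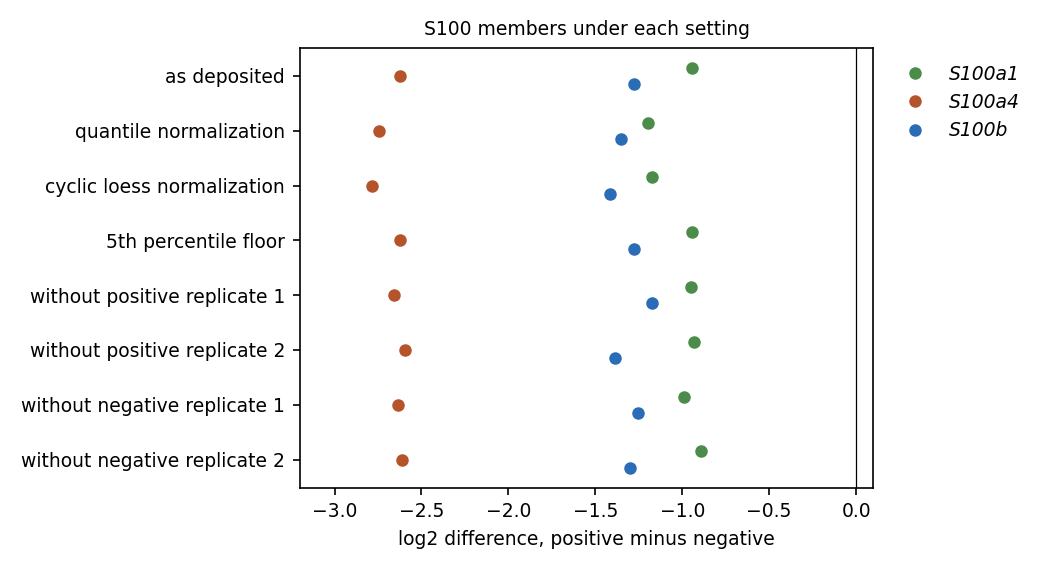
Log2 difference, positive minus negative, of each member as deposited, after quantile or cyclic loess normalization, with a higher floor for low values, and without each array. In every setting S100a4 lies lowest, between -2.78 and -2.60, S100b next and S100a1 closest to 0. The higher floor could not move the members, whose values are above 0.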

How the data were processed

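The authors deposited a value table of 4 arrays, taken here as linear probe intensities from its range. How it was background-corrected and normalized is not stated in the labels; the array medians near 0.99 show a like scale. Entries of -9999 were read as missing, and values that were missing or not above 0 (533 to 777 per array) took a floor, percentile 1 of that array's values above 0, before log2. Probes below the 40th percentile of mean log2 intensity (0.456) were left out, and no member was near it. Linear models of the log2 values were made in R 4.3.3 with limma 3.58.1 (lmFit and a trended eBayes prior; two-sided tests), adjusted by Benjamini-Hochberg over 21070 probes at 0.05. The smallest p an exact permutation test could give with these arrays is 0.333. The fit was tested on simulated data.

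Names came from the platform annotation, updated by gene ID through a GRCr8 gene table (16649 of 16677 single-symbol probes). Early IDs were read at their own row, late IDs 5 table rows later, and those between were not read. This was checked with probes that share an accession: in the early part levels correlated at r = 0.357 (529 pairs) at their own row, and at no more than 0.0377 when read up to 12 rows away. For late probes, each paired with an early one, r was 0.379 (991 pairs) 5 rows later and -0.162 at their own row. The members are early probes.

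The members and lists were chosen with earlier results of these data known. Named genes were the members, every other readable S100 gene, called genomic neighbours and the 3 probes most like each member. Of the partners, Ager, Anxa2, Myh9, Gfap and the 5 called genes with the largest difference in each direction were named. Of each marker list it was the leading called gene. Sox10, Tlr4, Myh10, Myh14, genes below the dim limit and some markers that rose or fell, made up most of a sum or lost a call were named in addition. The brightest probe stood for a gene that had several. A group mean below the dim limit is given with no fold. Alternatives were replicate number as a block, normalization, filter, floor, variance prior, threshold, probe choice, name reading and leaving out each array. Figures were drawn with matplotlib 3.10.9.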

Additional observations from a re-analysis of the deposited data

How the results depend on the processing

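All alternatives were planned. The members' differences were recomputed under both normalizations and kept their direction there. They were also recomputed with each array left out, where only their size could change, since the groups did not overlap. The block, the higher floor and both readings of late IDs were also run but could not change the members' differences. The members are early probes with values above 0, and the replicate numbers are balanced over the groups. S100a1 went from -0.94 to -1.20 (quantile) and -1.17 (cyclic loess), and S100a4 from -2.63 to -2.74 and -2.78. S100b went from -1.28 to -1.42 with loess. Each of these shifts exceeded the SD between replicates. Without a shared variance prior 7082 probes were called in place of 13530 (4492 higher, 2590 lower), 13 partners in place of 25 (9 higher, 4 lower), 0 other S100 genes higher and 1 genomic neighbour higher. With late IDs at their own row, 2 other S100 genes were called, 0 of them higher, and 5 partners were lower; with early IDs alone, which tests fewer genes, 1 other S100 gene was called (0 higher, 1 lower), 14 partners (9 higher, 5 lower) and 2 genomic neighbours higher. Under the stricter filter on dim probes (percentile 60) 3153 probes were lower. Leaving out each array gave 12262 to 12764 calls, 20 to 24 partners, 4 other S100 genes and 10 to 11 neighbours; the lone array is assumed to vary like the other group. The replicate block, which by its balance leaves every difference as it is (-0.94, -2.63 and -1.28 for the members), gave 13711 calls. Deviations of same-numbered arrays were uncorrelated (r = 0.000316), so no pairing by replicate number was seen in the values. That correlation cannot show whether same-numbered arrays shared a pool. Except where fewer genes were tested, the cause was not tested.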
